A study of Mus musculus with 16 samples.

Results

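The 9 genes described here encode the cyclins of the mitotic and meiotic cell cycle: the A-type genes Ccna1 and Ccna2, the B-type genes Ccnb1 and Ccnb2, the D-type genes Ccnd1, Ccnd2 and Ccnd3, and the E-type genes Ccne1 and Ccne2. They were taken by name, not by a cut on any measured value, out of 21115 genes to which the authors had assigned peaks. Earlier results of these data were known when they were chosen. All 9 were found. ATAC-seq, in which the Tn5 transposase inserts adapters into accessible DNA, had been applied to male germ cells of C57BL/6 mice at 4 stages. The adult testis gave pachytene spermatocytes (PS), which are in meiotic prophase, and round spermatids (RS), which are haploid; both are called adult cells here. Testes at postnatal day 7 gave the spermatogonia, sorted as Thy1+ (Thy1) or c-Kit+ (cKit). At each stage cells from Scml2-knockout mice (Scml2-KO), which lack the germline Polycomb-type protein Scml2, were set against wild-type cells, with 2 libraries in each of the 8 groups and 16 libraries in all. About 250000 PS, 1000000 RS or 500000 spermatogonia entered a reaction. Stage, age and the number of cells per reaction cannot be told apart between adult cells and day 7 spermatogonia. Between PS and RS, stage and the number of cells per reaction cannot be told apart. Nothing in the labels ties replicate libraries to separate animals; the spread behind each p-value is therefore one between libraries and may be only technical.

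Cyclins are the regulatory subunits of cyclin-dependent kinases. D-type cyclins respond to growth signals and, with Cdk4 or Cdk6, start the phosphorylation of the retinoblastoma protein; E-type cyclins with Cdk2 drive entry into S phase; A-type cyclins act in S phase and toward division; and B-type cyclins with Cdk1 drive entry into division. In the mouse testis Ccna1 is the germline A-type cyclin, required for male germ cells to leave meiotic prophase, whereas Ccna2 is the form of most dividing cells. Open chromatin at a promoter is not the same quantity as transcription, and no RNA was measured here.

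The peak lists held between 17813 peaks in cKit Scml2-KO replicate 2 and 164060 in RS Scml2-KO replicate 1, and replicate 1 was the longer list in every group. Adult libraries had a median of 41724.5 peaks and spermatogonial libraries 79208. Of 9 pachytene markers, a median of 100% had a promoter peak in adult libraries and 38.9% in spermatogonial libraries, where Spo11, Hormad1, Piwil1 and Tex12 had none. Of 9 round spermatid markers the medians were 100% in adult and 11.1% in spermatogonial libraries, where Prm1, Prm2, Prm3, Tnp1, Acr and Actl7a had none. Presence of a peak at most of these markers did not separate PS from RS. Spo11, Hormad1, Piwil1, Tex12, Prm3, Tnp1, Tnp2, Acr, Actl7a and Spaca1 each had one in 4 of 4 PS and 4 of 4 RS libraries. Acrv1 had one in 2 PS and 4 RS libraries, and Prm1 and Prm2 in 3 and 4. Of 11 spermatogonial markers the medians were 63.6% in adult and 86.4% in spermatogonial libraries. Markers of somatic testis cells also had promoter peaks in spermatogonial libraries: the medians were 27.8% in adult and 88.9% in spermatogonial libraries for 9 Sertoli cell genes, and 31.2% and 100% for 8 peritubular and smooth muscle genes in the same order. They were lower for 6 endothelial genes (16.7% and 66.7%), 6 Leydig cell genes (0.0% and 33.3%) and 5 measured immune genes (0.0% and 40.0%). Of all genes, 55.1% to 69.4% had a promoter peak in adult libraries and 51.0% to 74.4% in spermatogonial libraries. The part of somatic cells in the results below was not tested. At Scml2 itself a promoter peak was found in 3 of 8 Scml2-KO and 6 of 8 wild-type libraries, which does not test the deletion.

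The upstream sequences of 5 of the 9 genes were held in the RefSeq promoter table (mouse build GRCm38.p6, the assembly also called mm10), and all 6 start sites in it coincided with those of the authors' annotation. The 150 bases just before each transcription start site (TSS) are shown because the promoter peaks described below sit on them. They are written 5′ to 3′ along the gene's strand. Capitals mark matches, on either strand, to the CCAAT box (CCAAT), the GC box (GGGCGG) and the core of the cAMP response element (TGACG). Capitals also mark the TTTGAA and TTTAAA forms of the cell cycle genes homology region, the only forms of it that were searched.
Ccna1 (minus strand, chr3:55055056-55055205): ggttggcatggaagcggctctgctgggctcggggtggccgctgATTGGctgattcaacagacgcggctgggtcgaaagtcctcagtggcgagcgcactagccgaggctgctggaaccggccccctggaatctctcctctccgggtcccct
Ccnb1 (minus strand, chr13:100786487-100786636): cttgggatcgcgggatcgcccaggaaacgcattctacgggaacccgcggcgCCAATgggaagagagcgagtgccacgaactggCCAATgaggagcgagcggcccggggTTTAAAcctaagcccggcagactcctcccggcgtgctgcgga
Ccnb2 (minus strand, chr9:70421555-70421704): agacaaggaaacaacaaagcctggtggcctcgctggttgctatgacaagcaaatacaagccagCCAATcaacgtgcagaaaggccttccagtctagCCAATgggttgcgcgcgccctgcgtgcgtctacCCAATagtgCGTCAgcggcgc
Ccnd3, upstream TSS (plus strand, chr17:47504901-47505050): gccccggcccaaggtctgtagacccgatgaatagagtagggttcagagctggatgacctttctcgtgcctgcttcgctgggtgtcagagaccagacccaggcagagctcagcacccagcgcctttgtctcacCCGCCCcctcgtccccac
Ccnd3, downstream TSS (plus strand, chr17:47593317-47593466): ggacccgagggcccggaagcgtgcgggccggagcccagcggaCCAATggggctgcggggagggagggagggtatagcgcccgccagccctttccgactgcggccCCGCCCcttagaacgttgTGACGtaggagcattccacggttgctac
Ccne1 (minus strand, chr7:38107491-38107640): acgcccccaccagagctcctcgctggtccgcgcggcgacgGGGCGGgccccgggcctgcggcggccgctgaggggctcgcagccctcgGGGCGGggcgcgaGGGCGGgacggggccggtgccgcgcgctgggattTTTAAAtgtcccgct

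Counting the base before the TSS as -1 and giving the first base of each match, Ccnb2 held CCAAT at -87, -54 and -21 and Ccnb1 at -99 and -67. Ccne1 held no CCAAT and had GGGCGG at -110, -62 and -49 within the bases shown. Over the 250 bases before the TSS of 32817 RefSeq promoters, CCAAT occurred in 33.8%, GGGCGG in 32.7%, TGACG in 17.7%, TTTAAA in 12.1% and TTTGAA in 16%, with both strands searched. Ccnb1 held TTTAAA at -42 and Ccne1 at -15, and a TTTGAA lay at -167 of Ccnb2, farther from the start than the bases shown. Neither TTTCGCGC nor TTTGGCGC, the E2F forms searched, nor TAACNG, a MYB form, was found in the 250 bases before any of the 6 start sites; among all promoters 0.655% held one of those E2F forms and 19.8% held TAACNG. These matches describe letters only.

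Promoters of 7 of the 9 cyclins were open at every stage and in both genotypes. Ccna1, Ccna2, Ccnb1, Ccnb2, Ccnd3, Ccne1 and Ccne2 had a promoter peak, meaning a peak that overlapped the TSS ± 1000 bp, in all 16 libraries, as did 39.2% of all genes. Ccnd1 had one in 12 libraries and Ccnd2 in 10. Fisher's exact test of the number of open libraries, adult cells against spermatogonia, could not reach an unadjusted p of 0.05 for any of the 7, nor for Ccnd1, which was open in 6 of 8 adult and 6 of 8 spermatogonial libraries. It could be run on Ccnd2 and did not call it. Over all genes, 8.52% of the 3883 that could be tested were called higher in adult cells and 24.7% lower, or 33.2% in all.

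**Figure D1:**
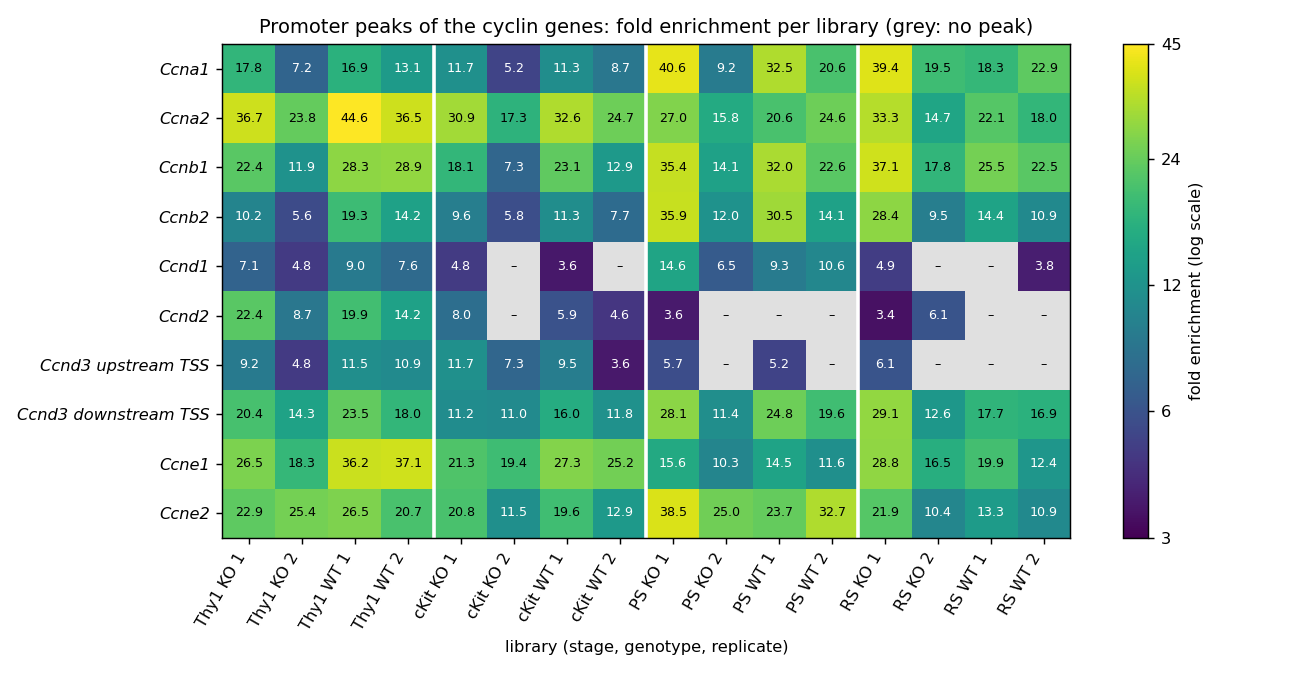
Fold enrichment of the highest promoter peak summit (color, log scale, and printed value) for each cyclin TSS (rows) in each of the 16 libraries (columns, by stage, Scml2-KO to the left of wild type). Grey cells have no promoter peak: Ccnd1, Ccnd2 and the upstream TSS of Ccnd3 are the rows with gaps.

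Since presence does not separate promoters that are open everywhere, their fold enrichment was ranked within each library. Fold enrichment is the authors' value for a peak, its pileup over the background of that library, and it moves with the length of the list. Each promoter was therefore given its percentile among the same 8272 promoters, those open in all 16 libraries, so that the ranked set does not change from one library to the next. Percentiles were compared between 8 adult and 8 spermatogonial libraries by a two-sided exact permutation test with Benjamini-Hochberg adjustment over the 8272 promoters. By this test 4 cyclin promoters ranked higher in adult cells (Ccna1, Ccnb1, Ccnb2 and Ccnd3), 2 ranked lower (Ccna2 and Ccne1) and Ccne2 was not called. Of all 8272 promoters 23.5% ranked higher in adult cells and 23.2% lower, 46.7% in all. Only Ccnb2 had adult and spermatogonial libraries that did not overlap, with adult cells above, as at 5.21% of all promoters; the reverse separation was seen at 7.42%. The median difference was 24.81 percentile points over the 7 cyclins and 0.8 over all promoters.

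**Figure D2:**
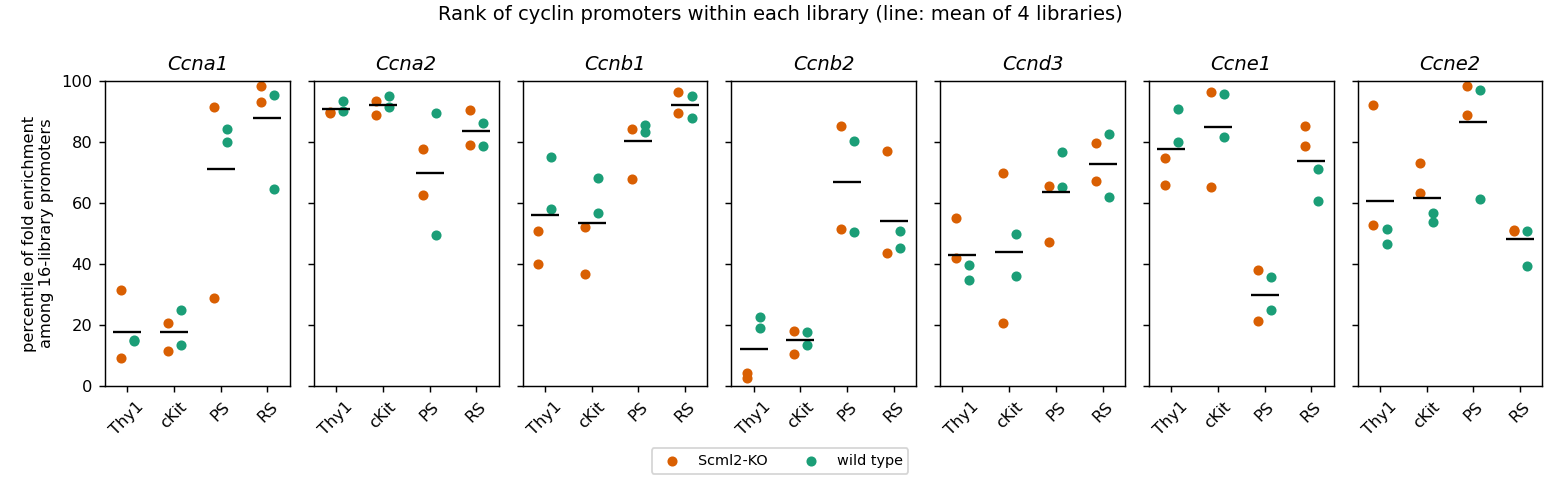
Percentile of promoter fold enrichment (y axis) among the 8272 promoters open in all 16 libraries, by stage (x axis) for the 7 cyclins open everywhere; points are libraries (orange Scml2-KO, green wild type) and lines are means of 4 libraries. Ccna1 and Ccnb2 sit at or below 31.4 in spermatogonia, and Ccne1 is lowest in PS.

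Among the A-type cyclins, the germline gene Ccna1 (TSS chr3:55055055, minus strand) moved most. Its percentile was 91.3 and 29.1 in Scml2-KO PS and 84.2 and 80.1 in wild-type PS, and it was 98.4 and 93.1 in Scml2-KO RS and 64.5 and 95.4 in wild-type RS. It was between 9.28 and 31.4 in the 8 spermatogonial libraries. All adult libraries but PS Scml2-KO replicate 2 were thus above every spermatogonial one, and that library, at 29.1, lay under the highest of them, Thy1 Scml2-KO replicate 1. Ccna1 averaged the percentile 79.5 ± 23.1 in adult cells and 17.7 ± 7.47 in spermatogonia (SD, n = 8 each), a difference of 61.8 (exact permutation test, adjusted p = 0.00185). The mean was 17.7 in Thy1, 17.7 in cKit, 71.2 in PS and 87.9 in RS. The start site of 4931419H13Rik lies 187 bp from that of Ccna1 on the opposite strand, so the same peaks fall in both windows and cannot be given to one gene.

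Ccna2 (TSS chr3:36571996, minus strand), the A-type cyclin of mitotic cells, ranked high in spermatogonia and lower in adult cells. Its percentile ranged from 49.6 in PS wild type replicate 1 to 90.7 in adult libraries and from 88.8 to 95.2 in spermatogonial libraries. It averaged 76.8 ± 14.2 in adult cells and 91.5 ± 2.28 in spermatogonia (SD, n = 8 each), a difference of -14.7 (exact permutation test, adjusted p = 0.00667). The groups overlapped in a narrow band, and the spread was wider among adult libraries. The highest summit of its promoter peak lay between -75 and -32 bp from the TSS in adult libraries and between -235 and -73 bp from it in spermatogonial libraries, negative values being upstream.

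Set against each other within a library, the A-type pair changed order in part of the adult libraries. Fold enrichment was higher at Ccna1 than at Ccna2 in 5 of 8 adult libraries, 2 of 4 PS and 3 of 4 RS, and in 0 of 8 spermatogonial libraries. The ratio of Ccna1 to Ccna2 fold enrichment had a median of 1.23 (0.586 to 1.58) in adult cells and 0.356 (0.3 to 0.486) in spermatogonia. The ranges of this ratio did not overlap, and how often other pairs of promoters separate in this way was not counted. A ratio within a library shows unequal change of the pair, not which of them changed.

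**Figure D3:**
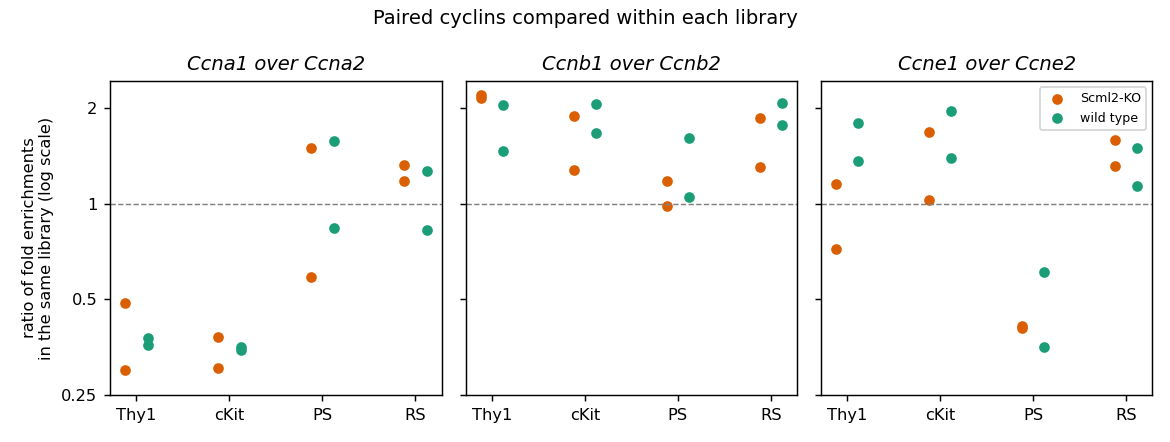
Ratio of promoter fold enrichments of paired cyclins in the same library (y axis, log scale) by stage (x axis); points are libraries (orange Scml2-KO, green wild type), and the dashed line marks equal values. Ccna1 is below Ccna2 in every spermatogonial library, and Ccne1 is below Ccne2 in every PS library.

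Both B-type promoters ranked higher in adult cells. Ccnb2 (TSS chr9:70421554, minus strand), a partner of Cdk1, had percentiles of 85.1 and 51.6 in Scml2-KO PS, 80.3 and 50.6 in wild-type PS, 77.2 and 43.6 in Scml2-KO RS, and 45.4 and 50.9 in wild-type RS. In Thy1 cells it had 4.26 and 2.59 in Scml2-KO and 22.7 and 19.2 in wild type, and in cKit cells 10.6 and 18.3 in Scml2-KO and 13.5 and 17.8 in wild type. The lowest adult library, at 43.6, was above the highest spermatogonial library, at 22.7, and the adult spread was the wider. Ccnb2 averaged 60.6 ± 17.2 in adult cells and 13.6 ± 7.28 in spermatogonia (SD, n = 8 each), a difference of 47.0 (exact permutation test, adjusted p = 0.00123). The unadjusted p was 0.000155, the smallest that this design can give.

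Ccnb1 (TSS chr13:100786486, minus strand), the B-type cyclin whose complex with Cdk1 starts division, ranked from 67.8 to 96.4 in adult libraries and from 36.6 to 75.1 in spermatogonial libraries. It averaged 86.2 ± 8.85 in adult cells and 54.8 ± 13.0 in spermatogonia (SD, n = 8 each), a difference of 31.4 (exact permutation test, adjusted p = 0.00241). The groups overlapped where PS Scml2-KO replicate 2, the lowest adult library, lay below Thy1 wild type replicate 2 and cKit wild type replicate 1. All 4 RS libraries were above all 4 PS libraries, with means of 92.2 and 80.2, as 11.2% of all promoters were. Fold enrichment was higher at Ccnb1 than at Ccnb2 in 7 of 8 adult and in all 8 spermatogonial libraries.

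The E-type promoters differed from each other in PS. Ccne1 (TSS chr7:38107490, minus strand), which opens S phase with Cdk2, had percentiles of 65.9 and 74.6 in Scml2-KO Thy1, 80.1 and 90.8 in wild-type Thy1, 65.3 and 96.4 in Scml2-KO cKit, and 81.8 and 95.8 in wild-type cKit. In PS it had 21.3 and 38.1 in Scml2-KO and 25.1 and 35.7 in wild type, and in RS 78.6 and 85.3 in Scml2-KO and 71.3 and 60.5 in wild type. All 4 PS libraries were thus below every library of the other stages. PS below cKit with no overlap was seen at 18.6% of all promoters, and RS above PS with no overlap at 11.2%. Across classes Ccne1 averaged 52.0 ± 25.0 in adult cells and 81.3 ± 12.3 in spermatogonia (SD, n = 8 each), a difference of -29.4 (exact permutation test, adjusted p = 0.0298). This call was lost on leaving out cKit Scml2-KO replicate 2 (adjusted p = 0.0531, exact permutation test), cKit wild type replicate 2 (0.0553) or Thy1 wild type replicate 2 (0.0524).

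Ccne2 (TSS chr4:11191354 and chr4:11191709, plus strand), the other E-type partner of Cdk2, was highest in PS. Its percentile was 88.9 and 98.3 in Scml2-KO PS and 61.5 and 97.0 in wild-type PS, and between 39.5 and 51.3 in the 4 RS libraries, all of which were below all 4 PS libraries. That step was shown without overlap by 10.9% of all promoters. The means were 60.8 in Thy1, 61.8 in cKit, 86.4 in PS and 48.1 in RS. Adult cells averaged 67.3 ± 23.7 and spermatogonia 61.3 ± 15.0 (SD, n = 8 each), which the exact permutation test did not call (difference 6.0, adjusted p = 0.640). Within a library Ccne1 was above Ccne2 in 3 of 4 Thy1, 4 of 4 cKit, 0 of 4 PS and 4 of 4 RS libraries. For no cyclin were all 4 cKit libraries above or below all 4 Thy1 libraries, as 2.18% and 2.43% of all promoters were, while PS was above cKit without overlap at Ccna1 and Ccnb2, as at 18.1%. With 4 libraries against 4 an exact test cannot give a p below 0.0286, so these steps are described and not tested.

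Of the D-type genes, Ccnd3 had a start site that was open everywhere and one that was open mostly in spermatogonia. The downstream TSS (chr17:47593467, plus strand) was the one open everywhere. The ranked value of Ccnd3 was the higher of its start sites. That was the downstream one in every library but cKit Scml2-KO replicate 1, where the upstream fold enrichment was higher. The percentile of Ccnd3 ranged from 47.3 to 82.5 in adult libraries. In spermatogonial libraries it ranged from 20.7, in cKit Scml2-KO replicate 1, to 69.8. The percentile of Ccnd3 averaged 68.3 ± 11.4 in adult cells and 43.5 ± 14.8 in spermatogonia (SD, n = 8 each), a difference of 24.8 (exact permutation test, adjusted p = 0.00993). At the upstream TSS (chr17:47505051) a peak was found in 3 of 8 adult libraries, with fold enrichments of 5.16 in PS wild type replicate 1, 5.72 in PS Scml2-KO replicate 1 and 6.05 in RS Scml2-KO replicate 1. It was found in 8 of 8 spermatogonial libraries, at 3.60 to 11.7. The merged region around it, chr17:47504800-47505368, was called lower in adult cells (Fisher's exact test over libraries, adjusted p = 0.0418). Over all regions tested, 14.5% were called higher in adult cells and 46.8% lower, 61.3% in all. The call at this region was lost on leaving out any of the adult libraries PS wild type replicate 2, PS Scml2-KO replicate 2, RS wild type replicate 1, RS wild type replicate 2 and RS Scml2-KO replicate 2, with adjusted p between 0.0503 and 0.0524 by the same exact test. By the same exact test it was lost also with −log10 q of 5 or more (adjusted p = 0.172), with fold enrichment of 5 or more (0.368) and with lists of equal length.

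Ccnd2 (TSS chr6:127151048, minus strand), a D-type cyclin known from spermatogonia, had its highest promoter signal in Thy1 cells. Its promoter fold enrichment was 22.4 and 8.74 in Scml2-KO Thy1 and 19.9 and 14.2 in wild-type Thy1. In cKit cells it was 7.99 in Scml2-KO replicate 1, with no peak in replicate 2, and 5.93 and 4.63 in wild type. In adult cells it was 3.64 in PS Scml2-KO replicate 1, 3.41 and 6.06 in the Scml2-KO RS libraries, and no peak was found in the other 5. The count of 3 of 8 adult against 7 of 8 spermatogonial libraries was not called (Fisher's exact test over libraries, adjusted p = 0.187). It was called once the shortest list, cKit Scml2-KO replicate 2, was left out (adjusted p = 0.0498), and among the 4 wild-type adult and 4 wild-type spermatogonial libraries alone (0 against 4, Fisher's exact test, adjusted p = 0.0443). The Scml2-KO libraries did not show this difference. Among them a peak was found in 1 of 2 PS, 2 of 2 RS, 2 of 2 Thy1 and 1 of 2 cKit libraries. The summits of the adult peaks lay 305 to 701 bp past the TSS, and in 2 Thy1 Scml2-KO libraries the highest summit lay at -1548 and -1544 bp, upstream of it.

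The region next to the Ccnd2 TSS, chr6:127151499-127153861, reaches the window from the upstream side. It was open in 2 adult libraries, both RS, and in all 8 spermatogonial libraries, with fold enrichments between 4.76 and 22.4, and was called lower in adult cells (Fisher's exact test over libraries, adjusted p = 0.0199). The gene 9330179D12Rik starts 1422 bp from the Ccnd2 TSS on the opposite strand, and the authors' annotation gives the region to both genes. Beside the spermatogonial peaks of Ccnd2 and of the upstream Ccnd3 start, the share of the 9 Sertoli markers with a promoter peak ranged from 0.0% to 55.6% in adult and from 33.3% to 100% in spermatogonial libraries. Rhox5, Rhox8 and Cst12 had none in adult cells, but Rhox5 had one in only 1 spermatogonial library. Amh had one in 5 adult and 5 spermatogonial libraries. The part of Sertoli cells in these results was not tested, and cells of different types cannot be told apart in bulk libraries.

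Ccnd1 (TSS chr7:144939925, minus strand), the D-type cyclin of many growing cells, had the lowest median fold enrichment over the libraries with a promoter peak, 6.83. Its fold enrichment was 7.13 and 4.77 in Scml2-KO Thy1 and 9.04 and 7.63 in wild-type Thy1, and in cKit cells 4.79 in Scml2-KO replicate 1 and 3.56 in wild type replicate 1, with no peak in either replicate 2. In PS it was 14.6 and 6.52 in Scml2-KO and 9.29 and 10.6 in wild type, and in RS 4.92 in Scml2-KO replicate 1 and 3.76 in wild type replicate 2, with no peak in the other two. Thy1 and PS had a peak in 4 of 4 libraries each, and cKit and RS in 2 of 4 each. No cyclin promoter was open in 4 of 4 libraries of one stage and 0 of 4 of the stage before it, or the reverse, which over all genes was seen at 0.0% and 0.242% between cKit and Thy1, 1.06% and 1.31% between PS and cKit, and 0.123% and 0.199% between RS and PS.

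By rank, none of the 7 cyclin promoters open in all 16 libraries was called between Scml2-KO and wild-type libraries of the same stage. The presence test between genotypes could not reach an unadjusted p of 0.05 for any of the 9 cyclins, so it cannot show that no difference exists. Ccnd1 and Ccnd2 were not ranked and thus had no usable test of genotype. For the ranked promoters the lowest adjusted p between genotypes was 0.456 (exact permutation test within stages, adjusted over 8272 promoters). Libraries can be rearranged within stages in few ways, which limits how small an unadjusted p can be before adjustment. The lack of a rank call therefore does not show that genotype had no effect on the 7 ranked cyclins. Counted per gene, the number of open libraries differed only at Ccnd2, open in 6 of 8 Scml2-KO and 4 of 8 wild-type libraries, and for it the exact test within stages gave p = 0.583. In RS a Ccnd2 promoter peak was in 2 of 2 Scml2-KO and 0 of 2 wild-type libraries, as at 2.3% of all genes, and 2 against 2 libraries cannot give a p below 0.333. Ranked fold enrichment differed most at Ccne2, which averaged 71.4 ± 19.7 in Scml2-KO and 57.2 ± 17.4 in wild type, and at Ccnb1, which averaged 64.7 ± 23.2 in Scml2-KO and 76.3 ± 14.1 in wild type (SD, n = 8 each). The differences of 14.2 and -11.6 were not called (exact permutation test within stages, adjusted p = 0.640 for both), and the unadjusted p was 0.0262 and 0.0278. Over all promoters 0.0% of 8272 were called by rank, though 590 had an unadjusted p under 0.05, and 0.0% of the 803 testable for presence were called, of which 13 had an unadjusted p under 0.05.

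Away from the start sites the authors assigned 104 distal regions to the 9 genes, and these were spread unevenly. Ccnd3 had 33, Ccnd1 24, Ccne1 15 and Ccnb2 13, against 6 for Ccnb1, 5 for Ccne2, 4 for Ccnd2, 3 for Ccna1 and 1 for Ccna2. Of the 104, 57 were each open in only 1 library, among them 25 in RS Scml2-KO replicate 1 and 17 in PS Scml2-KO replicate 1, which head the list lengths of the adult Scml2-KO groups. None of the distal regions of Ccna1, Ccna2, Ccnb1 or Ccne2 was open in more than 1 library. Of 16 regions that could be tested between classes, 3 were called higher and 5 lower in adult cells; among all regions away from any TSS, 14.7% were called higher and 48.0% lower, 62.7% in all. Between genotypes 2 could be tested and 0 were called, as were 0.0% of 8560 regions over the whole table, where 100 had an unadjusted p under 0.05.

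**Figure D4:**
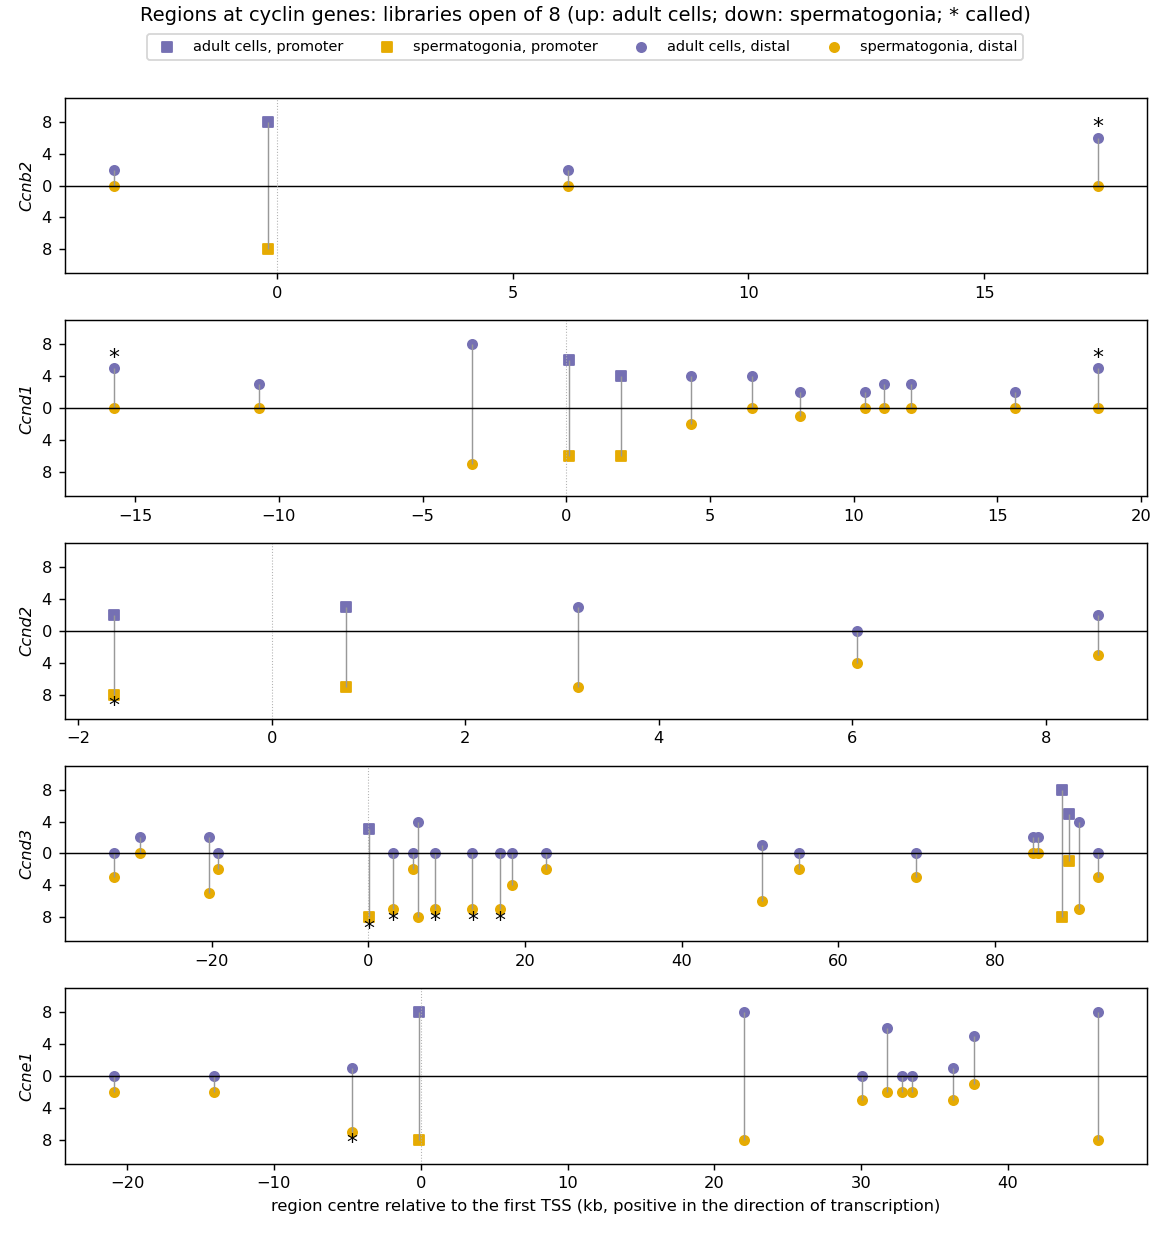
Merged regions open in 2 or more libraries at Ccnb2, Ccnd1, Ccnd2, Ccnd3 and Ccne1 (rows): distance of the region's centre from the first TSS in kb (x axis) and number of 8 libraries open (y axis, adult cells upward, spermatogonia downward; squares touch the promoter window, circles are distal). Stars mark called regions, which at Ccnd3 fall in the first 16.8 kb of the gene.

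Spermatogonial regions of Ccnd3 lay in introns between its start sites. Intronic regions at chr17:47507836-47508617, chr17:47513310-47513719, chr17:47518029-47518668 and chr17:47521455-47522240, centred 3.2, 8.5, 13.3 and 16.8 kb past the upstream TSS, were each open in no adult library and in 7 of 8 spermatogonial ones. The 7 were 4 Thy1 and 3 cKit libraries at each of them, and each region was called (Fisher's exact test over libraries, adjusted p = 0.00877). Their fold enrichments reached 20.5, 10.2, 17.8 and 14.8 in the same order. With every list held to its 17813 strongest peaks the region at 13.3 kb kept its call and the other 3 did not, and the region at 8.5 kb was not called with −log10 q of 5 or more either. A further intronic region, chr17:47510995-47511856, was open in 4 adult and 8 spermatogonial libraries, and chr17:47555156-47555544, 50.3 kb past the upstream TSS, was open in 1 adult and 6 spermatogonial libraries and was not called (Fisher's exact test, adjusted p = 0.0607). The region 50.3 kb past the TSS was called with −log10 q of 5 or more (adjusted p = 0.0192), with fold enrichment of 5 or more (0.0182), in wild-type libraries alone (0.0384), with the replicate block (0.038) and without Thy1 Scml2-KO replicate 2 (0.0286), cKit Scml2-KO replicate 2 (0.0245) or RS Scml2-KO replicate 1 (0.0231), all by exact tests.

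Ccnd1 showed the opposite direction, with regions found in adult cells on both sides of the gene. The region chr7:144954726-144956601, 15.7 kb before the TSS, was open in 4 PS libraries and 1 RS library, and chr7:144920725-144922122, 18.5 kb past the TSS, in 3 PS and 2 RS libraries. Neither was open in a spermatogonial library, and each was called (Fisher's exact test over libraries, adjusted p = 0.0418). By the same exact test both calls were lost without PS wild type replicate 1 (adjusted p = 0.052), PS wild type replicate 2 (0.051) or PS Scml2-KO replicate 1 (0.0507); the first was lost also without PS Scml2-KO replicate 2 (0.0506), and the second without RS wild type replicate 1 (0.0524). Neither was called with every list held to its 17813 strongest peaks, and the second was not called with −log10 q of 5 or more or fold enrichment of 5 or more. The second region was assigned to Oraov1 as well as to Ccnd1 in the authors' lists. Nearer to the gene, the region chr7:144941100-144945341, centred 3.3 kb before the TSS, was open in 8 adult and 7 spermatogonial libraries and had the highest fold enrichment of any distal cyclin region, 39.0.

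Ccnb2 had 1 called distal region, chr9:70403372-70404910, an intergenic stretch 17.4 kb past its TSS. It was open in 4 of 4 PS and 2 of 4 RS libraries and in 0 of 8 spermatogonial ones (Fisher's exact test, adjusted p = 0.0199), with fold enrichments between 3.88 and 10.9. Like the Ccnd1 region 15.7 kb before the TSS it was open in 4 of 4 PS and 0 of 4 cKit libraries, as 0.647% of all regions were. The Ccnb2 region was not called with −log10 q of 5 or more, with fold enrichment of 5 or more, or with lists of equal length. Ccne1 had the 2 distal regions that were open in all 16 libraries, chr7:38084515-38086414 and chr7:38060747-38061992, centred 22.0 and 46.1 kb past its TSS. Their fold enrichments ranged from 9.55 to 35.6 and from 4.51 to 32.0, which overlaps the 10.3 to 37.1 of the Ccne1 promoter. A further region, chr7:38111620-38112751, 4.7 kb before the TSS, was open in 1 adult library, of PS, and in 7 spermatogonial libraries and was called lower in adult cells (Fisher's exact test over libraries, adjusted p = 0.0266). Intergenic regions carry the authors' assignment to a gene, which does not show that they act on it.

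The promoters of the wider cell cycle machinery were open at most stages as well. Of 59 other genes (further cyclins, kinases, inhibitors, Rb and E2F proteins, phosphatases, degradation factors and MYB-MuvB regulators) all were measured, 48 had a promoter peak in all 16 libraries, and the median gene was open in 16 libraries against 13 over all genes. Between classes 2 could be tested for presence and 0 were called: Ccnb1ip1, a meiotic crossover protein, was open in 6 adult and 2 spermatogonial libraries (Fisher's exact test, adjusted p = 0.196), and Wee2, an inhibitory kinase, in 6 and 3 in the same order (adjusted p = 0.395). Ccnb3, a meiotic B-type cyclin, was open in 4 adult and 0 spermatogonial libraries, too few to test.

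By rank, 6 of the 48 were higher in adult cells, 12 were lower and 30 were not called, with a median difference of -4.84 points; over all 8272 promoters 23.5% were higher, 23.2% lower and the median was 0.8. Among other cyclins, 1 of 8 was higher, Ccnt1 of the transcription kinase P-TEFb, by 36.6 points, and 5 were lower: Ccng1 (difference -54.6 percentile points, with means of 43.0 in adult cells and 97.5 in spermatogonia), Ccno (-50.1), Ccng2 (-33.7), Ccnc (-27.5) and Ccnf (-20.5). Among inhibitors, Cdkn1c (difference 51.1) and Cdkn2b (32.3) were higher and Cdkn2d (-22.7) was lower. Of 7 kinases and kinase subunits, Cks2 was higher (13.0) and 6 were not called, among them Cdk1 with 35.6 ± 18.2 in adult cells and 46.1 ± 11.96 in spermatogonia, and Cdk2 with 75.0 ± 13.7 and 60.1 ± 13.96 in the same order (SD, n = 8 each). Of Rb and E2F genes, Tfdp2 was higher (7.72) and E2f5 and E2f8 lower (-25.5 and -23.0); of the kinases and phosphatases that act on Cdk1, Pkmyt1 was lower (-17.5); of the degradation factors, Cdc20 and Fbxo5 were lower (-26.1 and -14.7); and of the MuvB group, Lin9 was higher (24.7) and Lin54 lower (-36.0). Adjusted p in these calls, all by the exact permutation test, was between 0.00123 and 0.0346.

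The genes whose promoter profile was most like that of a cyclin, by Pearson's r of log2 fold enrichment centred in each library over the libraries where both had a peak, are given as a description. For Ccna1 they were 4931419H13Rik, which shares its peaks (r = 1.0), Ankrd53 (0.948 over 15 libraries) and Cdc14b (0.946 over 16), and for Ccnb2 Papola (0.96 over 16), Calb2 and March10. Ccne1 was most like Qser1 (0.965 over 16 libraries), Polr3c and Rnf115, and Ccne2 most like Parp8 (0.929 over 16), Fst and Piezo1. Ccna2 was most like Prr16, Rab3b and Gas2 (0.93 to 0.932), Ccnb1 most like Map1lc3a (0.933), Atp2b2 and Sil1, Ccnd1 most like Ubl3 (0.947 over 12), Ctdp1 and Ogfr, and Ccnd3 most like Chd4 (0.931), Ctnnb1 and Prpf40b. For Ccnd2 the number of libraries with the same open or closed state was used, and P2rx5, Rasd1 and Cdc42ep1 matched it in 16 of 16, as did 12 genes in all. Libraries with peak lists of different length are the points of these correlations, and classes of cells separate them.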

How the data were processed

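ATAC-seq libraries were sequenced as 75-bp single reads after selection of 250 to 500 bp fragments, per the labels' protocols. Peaks had been called per library; the submitters' processing notes name Bowtie 1.1.1, MACS2 2.1.0.20140616 and mm10, with caller options not given in the sources used here. The deposited lists hold a pileup (a coverage signal), a fold enrichment (a ratio), −log10 p and −log10 q for each summit, per the file headers; scores are the authors' and read depth is unknown. Summit lines (1431525, of which 576 mitochondrial lines were left out) were joined to 1111092 peaks, and peaks of all libraries with at least 1 bp of overlap were merged to 367750 regions. Presence was tested by Fisher's exact test (adult against spermatogonia) or exactly within stages (genotype, 1296 arrangements), with Benjamini-Hochberg adjustment over all features able to reach p of 0.05 and a threshold of 0.05. Percentile ranks were added after the data were seen. The members and lists were chosen with earlier results of these data known. All members were named, with called genes of each list, or otherwise up to 3 with the widest difference in libraries, and the 3 most alike genes per member; further genes in text were chosen after their values were seen. Alternatives changed peak thresholds, list length, the window, the merging overlap, the replicate block and the libraries used. Tests were tried on simulated data. Python 3.11.15, pandas 2.3.3 and SciPy 1.17.1 were used.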

Additional observations from a re-analysis of the deposited data

Results flagged for a closer look

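Of 14 groups of 8 libraries checked for a sample far from the others (the percentile of each of 7 cyclin promoters in adult cells and in spermatogonia), 1 stood out, where chance gives about 1 in 20. Ccnb1 in adult cells was lowest in PS Scml2-KO replicate 2, at the percentile 67.75, far from the other 7 adult libraries relative to their range. In none of 16 tests of whether the genotype difference itself differed between adult cells and spermatogonia was the exact permutation p under 0.05; the lowest were 0.0833 for presence of a Ccnd2 promoter peak and 0.088 for the percentile of Ccne1.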

How the results depend on the processing

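Of the alternatives run, those below moved a count of calls by over 1.5 times, and the cause was not tested unless fewer peaks or libraries entered. With −log10 q of 5 or more, RS against PS promoters counted 104 against 68 and regions called between adult cells and spermatogonia 15461 against 29640; with fold enrichment of 5 or more these were 142 and 17272. With each list held to its 17813 strongest peaks, promoters called between classes were 2109 against 1289 (808 higher and 1301 lower in adult cells), PS against cKit 1099 against 500, RS against PS 323, regions 7986, and promoters called by rank 2502 against 3862. In wild-type libraries alone 11748 regions and 0 promoters by rank were called, and in Scml2-KO libraries alone 0 promoters, 0 regions and 0 by rank, with 4 libraries against 4 that cannot give a p below 0.0286. Leaving out a library gave 1314 to 2392 promoters and 19220 to 42889 regions between classes, 51 to 146 for cKit against Thy1, 500 to 881 for PS against cKit and 68 to 198 for RS against PS, and 3511 to 3971 by rank; the promoter and region highs came without cKit Scml2-KO replicate 2. No setting called a genotype difference. The labels' replicate numbers gave a correlation over 0.1 in 21 of 28 pairs of groups, and all 28 were positive (0.029 to 0.48). Whether libraries of one replicate number share a batch was not tested, and the main tests did not pair them. The numbers are those of the sample titles, and the names of all 16 deposited files carry other replicate numbers. With the replicate block 2215 promoters were called between classes (642 higher and 1573 lower).

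The 6 rank calls of cyclins kept their direction in every setting run and, Ccne1 aside, their call whenever 1 library was left out; in wild-type libraries alone each had an adjusted p of 0.0869 and in Scml2-KO libraries alone 0.113 to 0.510. Ccnb2 could not be ranked with lists of equal length, since it was not open in all 16. The called Ccnb2 and Ccnd1 distal regions, the upstream Ccnd3 start and 3 of the 4 called Ccnd3 intronic regions, all but chr17:47518029-47518668, were not called with lists of equal length. The Ccnb2 region, the Ccnd1 region at chr7:144920725-144922122 and the upstream Ccnd3 start were also not called with either peak threshold, nor was chr17:47513310-47513719 with −log10 q of 5 or more. Genotype differences in percentile, none called, changed sign on leaving out a library: they ranged from -5.20 to 6.43 for Ccna1 (0.345 with lists of equal length), -4.02 to 3.08 for Ccna2, -5.05 to 1.68 for Ccnb2, -4.41 to 4.25 for Ccnd3 and -4.50 to 1.38 for Ccne1. Differences in open libraries that changed sign, none called, were the genotype difference of the Ccnd3 region at chr17:47484499-47484852 (-2 with either threshold), of that at chr17:47595207-47596410 (-1 with −log10 q of 5 or more) and of the Ccnd1 region at chr7:144920725-144922122 (1 with fold enrichment of 5 or more), and the class difference of the Ccnd1 region at chr7:144937098-144938959 (1 with lists of equal length) and of the Ccnd2 region at chr6:127142171-127142843 (1 in Scml2-KO libraries alone). Read depth is unknown, so a region that was closed and one whose peak was not detectable cannot be told apart.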
